A study of Mus musculus with 10 samples.

Results

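Wdfy1, Nnt, Cyfip2, Ide, Entpd4, Crb1 and Nlrp12 are 7 mouse genes known to differ in sequence or expression between substrains of C57BL/6, the inbred mouse strain kept for decades in separate colonies. They were chosen by gene name, with their values in this comparison already known, and all 7 had a row among the 24421 genes of the authors' deposited table. RNA came from olfactory epithelium, the sensory tissue of the nose, of untreated mice at 6 months of age. The 2 groups were 6 libraries labelled Apoe4 and 4 labelled Apoe3, named in the series title as human alleles; Apoe codes for apolipoprotein E, which carries lipids. Both groups carry the same background label, C57BL/6, with no substrain named. The sources used here do not say how the alleles were introduced or how the 2 lines were bred. The study set the alleles against each other, and that contrast is read here for genes at which C57BL/6 colonies are known to differ.

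Colonies of one inbred strain drift apart as new mutations become fixed. In C57BL/6J mice a run of internal exons is missing from Nnt, and a missense variant lies in Nlrp12. In C57BL/6N mice Crb1 carries the frameshift known as rd8, a cause of retinal lesions, and Cyfip2 carries a missense variant tied to the response to cocaine. Wdfy1 and Entpd4 are known from differences in transcript level between the substrains, and Ide lies in a segment whose copy number varies among C57BL/6J mice. The members belong to unrelated processes. Wdfy1 is a FYVE-domain protein of early endosomes that joins Toll-like receptors to their adaptor TRIF, and Nnt is the transhydrogenase of the inner mitochondrial membrane, which makes NADPH at the expense of the proton gradient. Cyfip2 is a subunit of the WAVE complex, which starts actin branching. Ide is a metallopeptidase that degrades insulin and amyloid beta. Entpd4 hydrolyses nucleotides in the Golgi and lysosomes, Crb1 is an apical polarity protein, and Nlrp12 is an NLR-family protein of myeloid cells.

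The sequence of Entpd4 decides how far its counts can be read, and is therefore shown first. The GENCODE M21 annotation of GRCm38 holds a second copy, Entpd4b, at an offset of 218 kb on the same strand of chromosome 14. The first 90 coding bases of both copies, with the start codon in capitals, come from chr14:69347587-69349154 and chr14:69565837-69567404 on the plus strand, each run passing over an intron.
Entpd4: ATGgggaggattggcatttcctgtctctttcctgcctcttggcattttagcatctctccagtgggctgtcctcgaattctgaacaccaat
Entpd4b: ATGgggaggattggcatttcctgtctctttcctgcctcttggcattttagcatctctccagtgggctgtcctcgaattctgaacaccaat
The copies did not differ at any of these bases, nor at any of the 1839 bases of their coding sequences. Of 5 pairs of transcripts with equal lengths, from 418 to 3589 bases, all 5 had 0 differences. Every one of the 8304 distinct 150-base windows of the 6 Entpd4 transcripts also occurred in transcripts of another gene (150 bases is the read length in the labels' protocols). The 5 paired transcripts share their windows with Entpd4b. For the other 6 members 0 windows occurred in transcripts of another gene, out of 5769 for Wdfy1 to 14688 for Crb1. A read from within the 5 paired transcripts can thus be placed equally well at either copy, and the sources used here do not say how the authors' counting treated such reads. Introns and flanks were not compared. The deposited table has a row for Entpd4, and Entpd4b was not analysed here.

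The direction of the deposited folds was read from genes with 1 read in a single library. Their means stood at 10 levels, 1 for each size factor; folds were positive at 6 of these and negative at 4, which are the numbers of Apoe4 and Apoe3 libraries, so that a positive fold is higher in Apoe4. Libraries held about 15500000 to 20100000 assigned reads in Apoe4 and 14900000 to 19900000 in Apoe3. Markers of mature olfactory neurons were abundant, with Omp at a mean of 113676, and 0 of 6 had an adjusted p under 0.05 in the authors' DESeq2 test. Of 4 markers of macrophages 0 were past it, with an implied summed level of 1131 normalized counts in Apoe4 and 1099 in Apoe3. Of 4 erythroid markers 2 were lower in Apoe4, Alas2 at -0.46 and Slc4a1 at -0.27 in log2 as deposited, and 2 (Hbb-bs and Hba-a1) were listed at 0. A listing at 0 does not show that haemoglobin RNA was absent, and why these genes had no counts was not tested. The error of Slc4a1, 0.063, is small for its mean of 93.5. Its fold may have been shrunk strongly, so no group levels are given for these markers. The part of erythroid cells in the results was not tested. The 4 tested genes of the Y chromosome were all lower in Apoe4, with log2 fold changes from -3.72 to -2.80 in the authors' deposited table and an implied sum of 39.4 in Apoe4 and 2344 in Apoe3. Xist, the RNA that silences an X chromosome in females, had an implied mean of 8358 in Apoe4 and 29.4 in Apoe3. It was listed without a p-value or adjusted p, and the reason is not given. The labels give no sex. The colony each line came from is not given either. For Wdfy1, Nnt and every other gene described here, allele, sex and any difference in colony of origin cannot be told apart in this design.

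Levels of the members spanned a wide range. Per kilobase of the longest coding transcript, Cyfip2 had a mean of 712 normalized counts over all 10 libraries, Wdfy1 491 and Ide 469. These placed them above 88.3%, 82.1% and 81.1% of the 14960 tested genes with a coding transcript. Nnt, at 68.5 per kilobase, was above 33.3% of those genes. Crb1 had 0.75 and Nlrp12 0.42 normalized counts per kilobase. Entpd4 was listed at 0.81 per kilobase, which is no measure of its level while its reads can be placed at either copy. The authors marked these last 3 as low and gave them no adjusted p. The spread between libraries cannot be read for the 4 abundant members, since the table gives only their means, so Wdfy1 and Ide are not ranked against each other. The difference between Crb1 and Nlrp12 was smaller than the standard deviation of Crb1 between libraries on the same scale, so their order is not resolved.

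Of the 7 members, 4 had an adjusted p from the authors' DESeq2 test, and 2 of them, Wdfy1 and Nnt, were past its threshold of 0.05, both lower in Apoe4. Over all 16050 genes tested, 0.779% were past that threshold in either direction, 0.455% were lower and 0.324% higher in Apoe4. Wdfy1 and Nnt were also the members called with no filter on the mean (0.563% of genes called), without genes of X and Y (0.715%), at an adjusted p under 0.01 (0.486%), against a fold of 1.2 (0.125%) and with a trend of the statistic with transcript length removed (0.619%). Since the members were chosen with this contrast known, their folds are a description and are given without p-values. The plot of folds against mean counts shows Wdfy1 far below the band that holds most genes of its abundance.

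**Figure D1:**
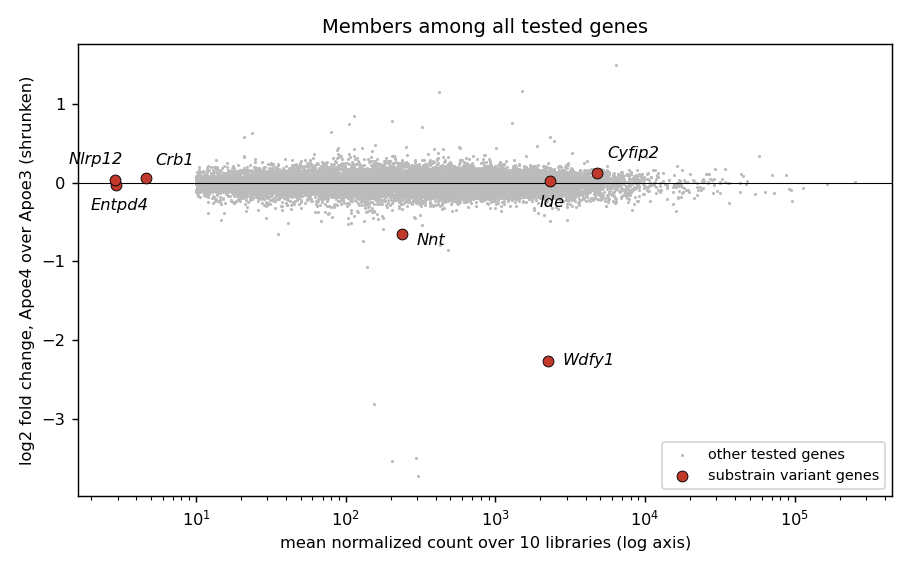
Each point is a gene, with its mean normalized count over all 10 libraries on a log axis and the authors' shrunken log2 fold change (Apoe4 over Apoe3) on the other; red points are the 7 members and grey points the other tested genes. Wdfy1 stands at -2.26 and Nnt at -0.65, Cyfip2 and Ide lie within the band around 0, and the 3 low members sit left of the tested genes; the 4 grey points below Wdfy1 are Y-linked.

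Wdfy1 (chromosome 1, 79702262 to 79776143, GRCm38, protein coding, 12 exons in its longest coding transcript) was much lower in Apoe4 mice. The authors' deposited table listed it with a mean over all libraries of 2235 normalized counts and a log2 fold change of -2.26 ± 0.06 (standard error). The authors shrank their folds towards 0. With the shrinkage undone approximately the log2 fold change was -2.50, which implies mean normalized counts of 782 in Apoe4 and 4413 in Apoe3, a fold of 5.64 between them. As deposited, the shrunken fold implies 887 in Apoe4 and 4256 in Apoe3. In bulk tissue fewer cells that express a gene and less RNA per cell cannot be told apart. The implied level of Wdfy1 per kilobase was 172 normalized counts in Apoe4 and 970 in Apoe3.

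Genes past the threshold and not placed on X or Y numbered 113. Among these, Wdfy1 had the lowest Wald statistic (the fold divided by its error) at -36.9. The next were A430035B10Rik on chromosome 6 at -9.95 and Alkbh6, of the AlkB demethylase family, on chromosome 7 at -8.12. In log2 their folds were -0.86 and -0.79 by the authors' deposited table. The distance in fold between Wdfy1 and the following gene was thus larger than that gene's own fold.

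Nnt (chromosome 13, 119335527 to 119409257, protein coding, 17 exons in its longest coding transcript) was lower in Apoe4 by a smaller step. The authors' deposited table gave it a mean normalized count of 237 and a log2 fold change of -0.65 ± 0.10 (standard error). Approximately unshrunken, the log2 fold change was -0.92, which implies means of 175 in Apoe4 and 331 in Apoe3. GRCm38 was assembled from C57BL/6J, the substrain with the deletion. Reads from the deleted exons of an intact allele have no place in that reference, so the counts of Nnt come from the exons that remain in it. In the order of the Wald statistic Nnt, at -6.80, stood 6th from the lowest of the 113 called genes not placed on X or Y. Beside it were Gm13375 at -7.28 and Pcyox1, which breaks down prenylated cysteines, at -6.96, then Dmkn, a secreted protein of epithelia, at -6.62 and Cml5 at -6.44. These genes lie on chromosomes 2, 6 and 7, none on chromosome 13. A likeness across libraries could not be measured, since values per library were not used for genes of this abundance.

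Cyfip2 and Ide, the other abundant members, were not past the threshold. Cyfip2 (chromosome 11, 46193849 to 46312859) had a mean normalized count of 4740 and a log2 fold change of 0.12 in the authors' deposited table, with a 95% interval from -0.00 to 0.25 on the shrunken scale. That implies about 4918 normalized counts in Apoe4 and 4474 in Apoe3 with the shrinkage undone. Ide (chromosome 19, 37268743 to 37334544) had a mean of 2328 and a log2 fold change of 0.02, with a 95% interval from -0.13 to 0.16. Its implied means were 2340 in Apoe4 and 2309 in Apoe3. These intervals do not show that the levels of either gene were equal in the groups. The missense variant of Cyfip2 changes the protein and need not change a count of reads.

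**Figure D2:**
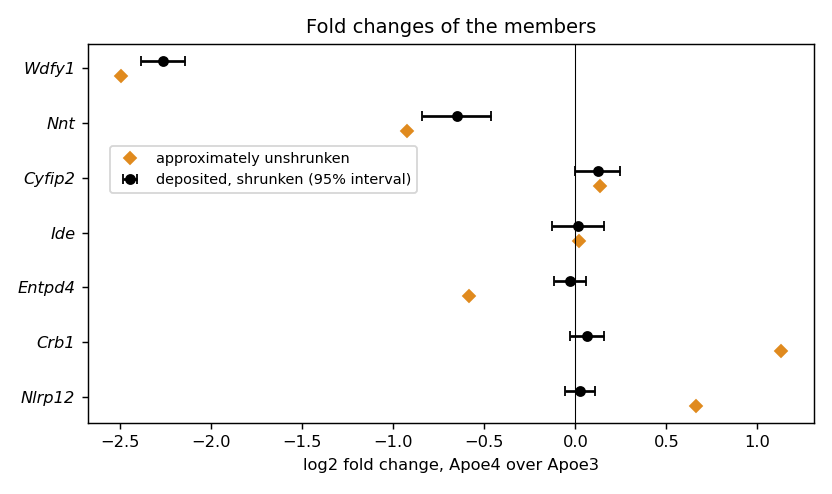
Log2 fold changes (Apoe4 over Apoe3) of the 7 members: black points with bars are the authors' shrunken values with 95% intervals, and orange diamonds the approximately unshrunken values. Wdfy1 runs from -2.26 shrunken to -2.50 unshrunken and Nnt from -0.65 to -0.92, while for the 3 low members shrinkage has removed most of the fold.

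For the 3 low members the reads of each library could be read back from the deposited mean and the 10 size factors. One combination of whole reads per library gave the deposited mean of each gene within 5e-14. A single combination was also found for 456 of 456 genes with means between 2 and 3, and for 562 of 563 with means from 3 to 5, the range that holds Crb1. In each range it was found for 0 of 100 means shifted slightly on purpose. Which numbered replicate a library is cannot be told this way, so libraries are given in order of their reads. A library with 0 reads allows up to 3 reads at its depth. This limit covers counting error only.

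Crb1 (chromosome 1, 139176649 to 139379316, protein coding) had 49 reads in all. Apoe4 libraries held 2, 2, 4, 9, 9 and 12 of them, against 0, 0, 2 and 9 in Apoe3 libraries. At least 2 reads were present in all 6 Apoe4 libraries, 2 Apoe3 libraries had none, and the groups overlap. Normalized for depth, the mean was 6.09 ± 3.90 in Apoe4 (SD, n = 6) and 2.43 ± 3.74 in Apoe3 (SD, n = 4). The difference of 3.66 normalized reads was smaller than the pooled standard deviation of 3.84. Without the Apoe3 library of 9 reads the mean of that group was 0.61, and the difference 5.48. The deposited fold of Crb1, 0.06 on the log2 scale, understates the ratio of these means, 1.32 on the log2 scale, by its shrinkage. No test was made on these reads, since the gene was chosen with its fold known.

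Nlrp12 (chromosome 7, 3218643 to 3249771, protein coding) had 28 reads. Apoe4 libraries held 0, 1, 2, 4, 6 and 7 reads, against 0, 2, 2 and 4 in Apoe3 libraries. The ranges overlap, and the highest values came from Apoe4. Normalized means were 3.42 ± 2.86 in Apoe4 (SD, n = 6) and 2.11 ± 1.80 in Apoe3 (SD, n = 4), a difference of 1.31 that was below the spread within groups. It was 0.53 without the Apoe4 library of 7 reads, 0.60 without the Apoe3 library of 0 reads, 0.85 without the Apoe4 library of 6 reads, 1.99 without that of 0 reads and 2.06 without the Apoe3 library of 4 reads. Markers of neutrophils, in which Nlrp12 is known to act, did not pass: 0 of 5 were past the threshold, with log2 fold changes from -0.05 to 0.02 in the authors' deposited table. None was listed at 0. Their errors, from 0.047 to 0.063, were smaller than those of the macrophage markers, from 0.087 to 0.102, at broadly similar means. Such small errors can come from strong shrinkage, so no group levels are given. The small folds of these markers do not show equal levels in the groups.

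Entpd4 (chromosome 14, 69337151 to 69366742) had 29 reads, and 5 of its 6 annotated transcripts were compared with its copy and found identical. Apoe4 libraries held 0, 2, 2, 2, 3 and 6 reads, against 2, 2, 2 and 8 in Apoe3 libraries. The library of 8 reads stood apart from the other 3 of its group. Normalized means were 2.40 ± 1.67 in Apoe4 (SD, n = 6) and 3.66 ± 3.38 in Apoe3 (SD, n = 4). Without that library the mean of Apoe3 was 1.97, so the sign of the difference rests on it. Because reads within the shared transcripts can be placed at either copy, these 29 reads do not measure how much Entpd4 is transcribed. The other members of its enzyme family that are abundant in this tissue include Entpd5, an endoplasmic reticulum enzyme, with a mean of 8153 and a log2 fold change of -0.02 (authors' deposited table, adjusted p = 0.952).

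**Figure D3:**
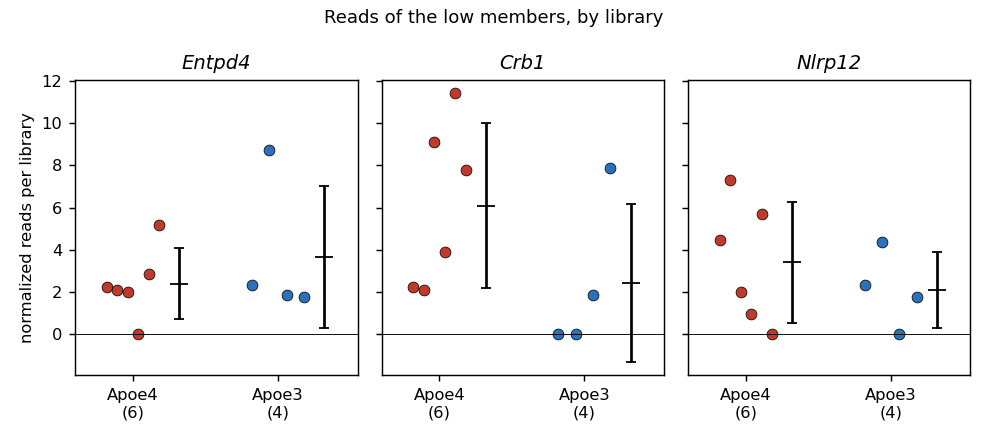
Normalized reads of Entpd4, Crb1 and Nlrp12 in each library (points), with the group mean and SD beside them, for 6 Apoe4 libraries (red) and 4 Apoe3 libraries (blue). The groups overlap for all 3 genes, 2 Apoe3 libraries have no read of Crb1, and 1 Apoe3 library stands apart for Entpd4 at 8.71 normalized reads.

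Genes around the members were read next, as they were not used to choose them. With distance taken between the lower coordinates of 2 genes, whichever strand they lie on, 92 other genes were tested within 1 Mb of the members and 5 were past the threshold, 5.43% against 0.779% of all tested genes. Of the 5, 3 lay beside Nlrp12, and around the other 6 members 2 of 74 were past it (2.70%). None of the 7 tested neighbours of Wdfy1 was past the threshold, and their log2 fold changes ran from -0.15 to 0.20 in the authors' deposited table (0 by DESeq2, 1 at an unadjusted p under 0.05). The neighbour at -0.15 was Mrpl44, a mitochondrial ribosomal protein gene on the opposite strand (adjusted p = 0.439), which overlaps Wdfy1 head to head by 126 bases, at the 5′ end of Wdfy1. Whether the counting used strand is not stated, so reads there may belong to either gene. Serpine2, a protease inhibitor whose near edge lies 18.2 kb from that of Wdfy1, with a mean of 11464, was at -0.02 (adjusted p = 0.921). Ap1s3, an adaptor subunit on the other side, was at 0.03 (adjusted p = 0.923).

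Beside Nnt, 1 of 10 tested neighbours was lower in Apoe4. This was Gm7120, with a gap of 78.8 kb to Nnt, a mean of 132 and a log2 fold change of -0.49 (authors' deposited table, adjusted p = 9.4e-04). Paip1, 4833420G17Rik and 3110070M22Rik begin in that gap, and none was past the threshold. Paip1, a translation factor partner 19.1 kb from Nnt, was at -0.05 (adjusted p = 0.855). On the other side the nearest was Fgf10, a growth factor, at 0.03 (adjusted p = 0.946). The lncRNA 3110070M22Rik overlaps one end of Gm7120, where reads may belong to either, and was at -0.19 (authors' deposited table, adjusted p = 0.452).

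Beside Cyfip2, 1 of 13 tested neighbours changed. Adam19, a membrane metalloprotease with a gap of 46.5 kb to Cyfip2, was higher in Apoe4 by 0.30 in log2 (authors' deposited table, adjusted p = 0.0136), and missed the threshold once the length trend was removed (adjusted p = 0.121). The nearest by lower coordinate were Nipal4 at 0.05 and Fndc9, which lies within the bounds of Cyfip2, at -0.03; they were not past it (adjusted p = 0.889 and 0.930). No tested neighbour of Ide, Entpd4 or Crb1 was past the threshold, out of 19, 18 and 7. Nearest to them were March5 at -0.08 and Kif11 at 0.10 for Ide, Slc25a37 at 0.01 and Loxl2 at 0.18 for Entpd4, and Dennd1b at 0.01 and Zbtb41 at 0.13 for Crb1, all as log2 folds of the authors' deposited table.

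Beside Nlrp12, 3 of 18 tested neighbours were higher in Apoe4: Myadm, a myeloid-associated membrane protein, Cacng7, an auxiliary subunit of AMPA receptors, and Ndufa3, a subunit of respiratory complex I. By the authors' deposited table their log2 folds were 0.42 (adjusted p = 8.7e-05), 0.44 (adjusted p = 0.00442) and 0.45 (adjusted p = 4.9e-04). The other 15 neighbours were not past the threshold. Within 2.5 Mb of Nlrp12, 5 of 50 tested genes were past it, against 0.779% of all tested genes. Of these 5, 4 were higher and 1 was lower in Apoe4. The calls beyond 1 Mb were Eps8l1 at 1.14 (authors' deposited table, adjusted p = 2.7e-36) and Shisa7 at -0.43 (adjusted p = 5.8e-04). Nlrp12 is the member that shares chromosome 7 with Apoe, at a distance of 16.5 Mb.

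**Figure D4:**
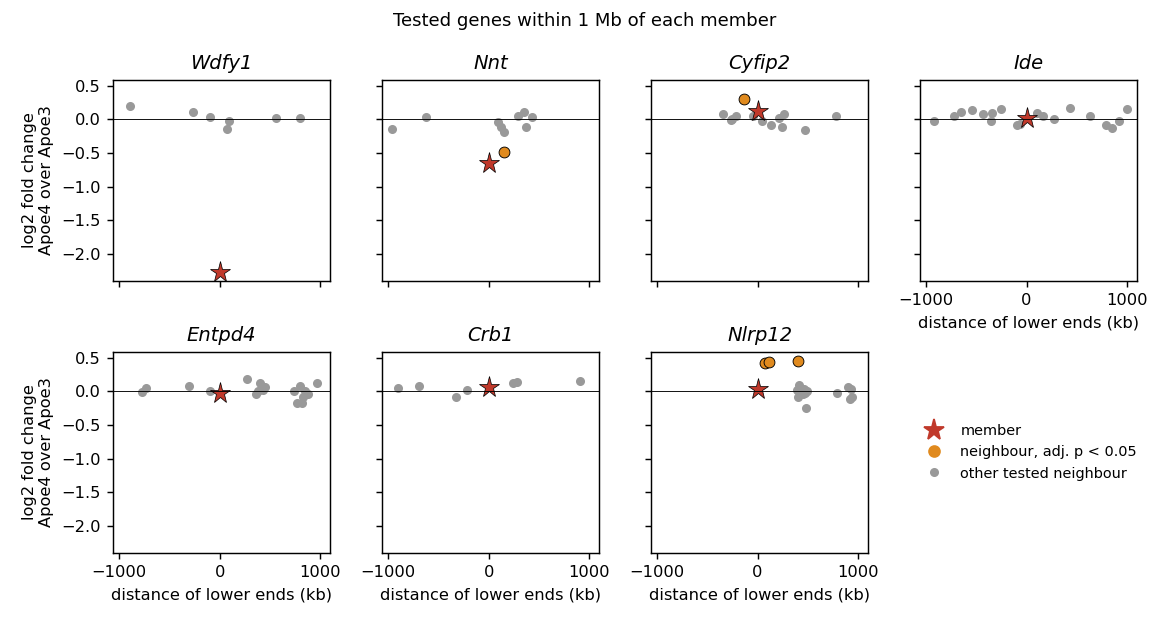
Log2 fold changes (Apoe4 over Apoe3) of tested genes within 1 Mb of each member, against the distance between lower coordinates in kilobases; the red star is the member, orange points are neighbours with an adjusted p under 0.05 and grey points the rest. Wdfy1 stands at -2.26 among neighbours between -0.15 and 0.20, Nnt has 1 lower neighbour, Cyfip2 has 1 higher and Nlrp12 has 3 higher.

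Other loci, 5 in all, known to vary between C57BL/6 colonies gave no call in the authors' DESeq2 test (1 at an unadjusted p under 0.05). Mmrn1, which codes for multimerin and is deleted in one commercial colony, was at 0.21 (authors' deposited table, adjusted p = 0.439) with a mean of 275. Its pooled mean was thus not near 0. Gabra2, a GABA receptor subunit with an intronic variant in C57BL/6J, was at 0.07 (adjusted p = 0.735), and Dock2, duplicated in another colony, at -0.07 (adjusted p = 0.856). Fgfbp3, placed 349 kb from Ide and counted above among its 19 neighbours, was at -0.03 (authors' deposited table, adjusted p = 0.947).

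Partners of the members were read from lists written from general knowledge, with earlier results of these data known. Over all lists 153 genes were tested and 2 were past the threshold, 1.31% against 0.779% of all tested genes. The median log2 fold change over these genes was 0.01, against 0.00 over all tested genes. Both calls, Gpx4 and Gpx1, belonged to one list, described with Nnt. The share of all tested genes at an unadjusted p under 0.05 was not counted. Counts at that level, above and below, thus have no background and are not read further.

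Around Wdfy1, 0 of 29 genes of WDFY and other FYVE-domain proteins were past the threshold (1 at an unadjusted p under 0.05), with a median log2 fold change of 0.00. These proteins bind the endosomal lipid phosphatidylinositol 3-phosphate. The closest relative of Wdfy1, Wdfy2, was at 0.13 (authors' deposited table, adjusted p = 0.641). The genes with the smallest p were Fgd2 at -0.18, Fgd6 at 0.17 and Zfyve9 at 0.13 (authors' deposited table, adjusted p = 0.466, 0.553 and 0.584). Among Toll-like receptors, adaptors and kinases that signal through TRIF, 0 of 16 tested were past the threshold (1 at an unadjusted p under 0.05), with a median of 0.02. Tlr3, the receptor for double-stranded RNA, was at 0.20, Tlr4, that for lipopolysaccharide, at 0.13, and Irf3, the transcription factor they activate, at -0.11 (authors' deposited table, adjusted p = 0.464, 0.668 and 0.645). Ticam1, which codes for TRIF itself, was at 0.08 (adjusted p = 0.828).

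Around Nnt, 0 of 17 genes of NADPH supply were past the threshold (1 at an unadjusted p under 0.05), with a median log2 fold change of 0.01. The other mitochondrial sources of NADPH include Idh2, isocitrate dehydrogenase, at -0.11 (adjusted p = 0.567) and Aldh1l2, a folate enzyme, at 0.23 (authors' deposited table, adjusted p = 0.420). G6pdx, the entry to the pentose phosphate pathway, was at 0.07 (adjusted p = 0.691). Of 11 genes listed under mitochondrial peroxide defence, 2 were lower in Apoe4 and none higher, against 0.455% lower and 0.324% higher of all genes tested. Of the 11, 9 stood at negative values, against 48.9% of all genes tested, with a median of -0.07. The list was written with earlier results known, so this is a description. The glutathione peroxidases Gpx4 and Gpx1 fell by 0.35 and 0.34 in log2 (authors' deposited table, adjusted p = 0.0236 and 0.0351). Txn2, mitochondrial thioredoxin, stood at -0.20 (adjusted p = 0.305). Neither peroxidase passed once the length trend was removed (adjusted p = 0.225 and 0.277).

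Around Cyfip2, 0 of 16 genes of the WAVE complex and its FMRP partners were past the threshold (1 at an unadjusted p under 0.05). Cyfip1, the paralogue of Cyfip2, was at 0.10 (adjusted p = 0.654), Wasf2 at 0.09 (adjusted p = 0.630) and Rac2, a GTPase of blood cells that activates WAVE, at -0.27 (authors' deposited table, adjusted p = 0.304). Around Ide, 0 of 12 peptidases and receptors for insulin and amyloid were past it (0 at an unadjusted p under 0.05), with Ace at 0.17, neprilysin (Mme) at 0.12 and Lnpep at 0.11 (authors' deposited table, adjusted p = 0.513, 0.727 and 0.744). Of the nucleotide-hydrolysing enzymes around Entpd4, 0 of 10 were past it (1 at an unadjusted p under 0.05). The smallest p there belonged to Enpp1 at 0.22, Entpd3 at 0.11 and Entpd7 at 0.06 (authors' deposited table, adjusted p = 0.348, 0.730 and 0.882).

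Around Crb1, 0 of 16 genes of the Crumbs and Par complexes were past the threshold (0 at an unadjusted p under 0.05). Pard6b was at -0.14, Mpp5, the scaffold that binds Crumbs, at 0.15 and Pard6a at -0.17 (authors' deposited table, adjusted p = 0.487, 0.517 and 0.552). Its relative Crb2 was low in this tissue, with a mean of 15.1 normalized counts, and at 0.13 (adjusted p = 0.653). Around Nlrp12, 0 of 21 NLR and inflammasome genes were past the threshold (5 at an unadjusted p under 0.05, all 5 lower in Apoe4). Of the 21, 13 stood at negative values, against 48.9% of all genes tested. Nlrc3, an inhibitory NLR, was at -0.27 with a mean of 14.8 (adjusted p = 0.112), and passed once the length trend was removed (adjusted p = 0.0280). Others were Naip5 at -0.18 (adjusted p = 0.452) and Gsdmd, the pore former of pyroptosis, at -0.20 (authors' deposited table, adjusted p = 0.472). Naip6, too low to be tested, had 8 reads in Apoe4 libraries and 17 in Apoe3 libraries, in overlapping ranges. Naip genes are close copies of one another, so their reads may be split among them.

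**Figure D5:**
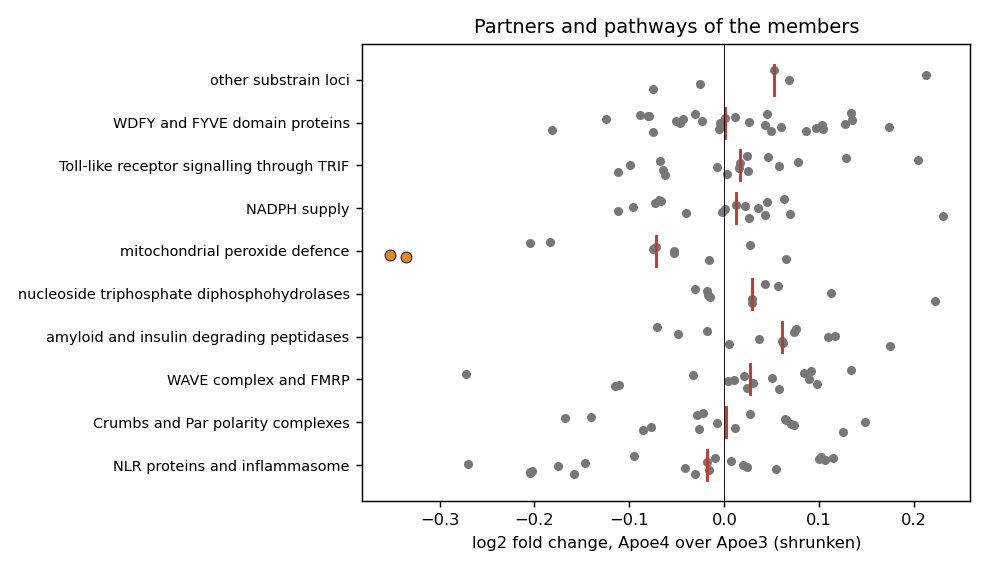
Log2 fold changes (Apoe4 over Apoe3, shrunken) of the tested genes in each list of partners; grey points are genes not past the threshold, orange points genes with an adjusted p under 0.05, and red bars list medians. The orange points are Gpx4 at -0.35 and Gpx1 at -0.34, and the medians lie between -0.07 and 0.06.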

How the data were processed

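The table the authors deposited holds 1 row of DESeq2 results for each gene, from poly(A)-enriched RNA sequenced as PE150, per the labels' protocols. The submitters' processing notes name STAR, featureCounts, DESeq2 and GRCm38, without versions or settings. The deposited mean is a signal over all 10 libraries, counts divided by size factors. The authors' log2 fold changes and errors were shrunk, the errors to at most 0.105. The score deposited beside them is their ratio, the Wald statistic. Adjusted p-values deposited by the authors cover 16050 genes, without the 8314 marked as low and without some others, such as Xist.

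Folds were unshrunken from the ratio of each error to its ceiling, and group means implied from mean and fold. Each ratio allows a weak and a strong shrinkage, and the weak one was taken above a mean of 77.0. That choice can be wrong for genes whose error is small for their mean, such as Slc4a1. Across 404 low genes with means between 2 and 3 and at least 5 reads in both groups, unshrunken folds differed from read ratios by a median of 0.03 (log2). This covers the strong shrinkage only. The weak one, used for Wdfy1, Nnt, Cyfip2 and Ide, was not checked against reads. Reads were computed with numpy 2.4.6 and the trend with transcript length by lowess (fraction 0.3, statsmodels 0.14.6), both tested on simulated data. Positions are RefSeq's on GRCm38.p6, found for 15357 tested genes by symbol and 653 by synonym, and sequences GENCODE M21's. Members and lists were chosen with earlier results of these data known. The text names members, the called genes and the 3 with the smallest p of each list, nearest and called neighbours, and genes next to Wdfy1 and Nnt by the Wald statistic; others were named after their values were seen. The values of 1 listed gene are not reported here. Nothing says that replicates came from separate litters, so p-values measure the spread between these samples.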

Additional observations from a re-analysis of the deposited data

Results flagged for a closer look

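In the 4 Apoe3 libraries, 1 library held 8 reads of Entpd4 and the other 3 held 2 each. Its gap to the nearest other library was 0.917 of the group's whole range in normalized reads, above the limit set for 4 samples. That limit is set so that about 1 in 20 groups of continuous values passes it by chance, and its rate for small whole counts was not measured. The paired transcripts of Entpd4 are identical in Entpd4b, and the part of that copy in the value was not tested.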

How the results depend on the processing

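No paired analysis was possible because the table gives no values per numbered replicate. A replicate block, and leaving out libraries for the 4 abundant members, were not run. The 2 calls among the members were also made under the 5 alternatives given with them, and Nnt came nearest to the threshold against a fold of 1.2. These alternatives reuse the same deposited statistics, and the members were chosen with them known, so they add no independent support. The sign of Ide turned with the length trend removed, from 0.02 to -0.02 in log2, and it was past the threshold under neither. The count of list genes past the threshold was 1 with the length trend removed, against 2 as deposited: Nlrc3 passed (adjusted p = 0.0280) and the 2 glutathione peroxidases did not. Neighbours past the threshold numbered 5 within 0.5 Mb and 7 within 2.5 Mb, against 5 within 1 Mb and 5 of 94 within 1 Mb of the members' edges, a window added after the data were seen. Leaving out each library in turn, an alternative added after the data were seen, moved the difference (Apoe4 minus Apoe3, normalized reads) between 2.59 and 5.48 for Crb1, 0.53 and 2.06 for Nlrp12, and -1.89 and 0.43 for Entpd4. Depth limits Nlrp12 and Crb1, which had 28 and 49 reads.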
